A study of Homo sapiens with 9 samples.

Results

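The genes described here are SRF, its cofactors MRTFA and MRTFB, the actin isoforms ACTB, ACTG1 and ACTA2, and TAGLN, TPM1, VCL and FHL2, which are actin-responsive targets. They were chosen by name as members of the SRF and MRTF pathway, by a rule that holds no measured value, and make up 10 of the 60664 genes listed. Both they and the gene lists set beside them were chosen with earlier results of these data known. All 10 passed the filter on low counts, which left 18264 genes for testing. RNA was sequenced from MDA-MB-231 cells, a human triple-negative breast cancer line, held for 6 days in medium whose viscosity was set with methylcellulose. There were 3 groups of 3 samples. Cells with a scramble hairpin (SC) were kept at either 0.77 cP or 8 cP, and a line with a hairpin against TRPV4 (shTRPV4) was kept at 8 cP, where cP is centipoise and 0.77 cP is close to the viscosity of water. Every sample, controls included, carried a puromycin-selected lentiviral hairpin vector, and the shTRPV4 cells were depleted of TRPV4, a calcium-permeable ion channel of the cell membrane. TRPV4-depleted cells at 0.77 cP were not analysed here, so whether the response to viscosity depends on TRPV4 could not be tested, and the knockdown rests on 1 hairpin line at 1 viscosity. No label ties the samples of a group to separate cultures, so p-values measure only the spread between these samples.

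SRF is a transcription factor that binds a short element, the CArG box, and works with a pair of cofactor families. The MRTFs bind monomeric G-actin and are released to enter the nucleus when actin polymerises, after which they drive genes of the contractile cytoskeleton, SRF and actin genes among them. The ternary complex factors answer to MAP kinase signalling instead and drive immediate early genes such as EGR1 and FOS. RNA counts report the transcript levels of these genes and do not measure where the MRTF proteins were in the cell. In bulk samples, fewer cells of a type and less RNA per cell cannot be told apart.

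The CArG box was searched as CC, then 6 bases that are each A or T, then GG, a pattern that reads alike on both strands. RefSeq start windows (GRCh38.p14, 250 bases before to 50 after each start) were matched for 8 of the 10 genes, and ACTB and TAGLN had no entry. The exact box stood in 454 of 35116 windows, or 1.29%, and a box with at most 1 mismatch in 18.9%. Of the 8 matched genes, SRF, ACTG1 and FHL2 held an exact box, ACTA2 held 2 boxes with 1 mismatch each, and MRTFA, MRTFB, VCL and TPM1 held neither form in their windows. The stretches below show these boxes, 5′ to 3′ on the strand of the gene with each box in capitals. EGR1 and MYLK, genes outside the 10 that held an exact box, are printed as well. EGR1 fell with viscosity and with knockdown, and MYLK rose with knockdown. They do not stand for their lists. Of other immediate early genes lower with viscosity, EGR2 held an exact box and EGR4 boxes with 1 mismatch. NR4A1, FOSB, FOS, JUNB and IER2 held neither form. The cytoskeletal genes CNN2 and FLNA held an exact box and passed in no comparison. The MYLK window is at an internal start near the 3′ end of the gene (chr3:123610049-123884332, − strand), not at its 5′ end. Which MYLK transcripts the counts came from was not tested.
SRF, chr6:43171224-43171268, + strand, ending at the base before the start: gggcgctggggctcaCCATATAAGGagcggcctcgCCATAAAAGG
ACTG1, chr17:81512869-81512908, − strand: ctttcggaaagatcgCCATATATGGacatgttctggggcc
FHL2, first window, chr2:105399086-105399125, − strand: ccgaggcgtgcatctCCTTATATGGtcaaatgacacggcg
FHL2, second window, chr2:105438590-105438629, − strand: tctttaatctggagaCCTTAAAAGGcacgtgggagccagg
ACTA2, chr10:88952820-88952909, − strand, both boxes with 1 mismatch: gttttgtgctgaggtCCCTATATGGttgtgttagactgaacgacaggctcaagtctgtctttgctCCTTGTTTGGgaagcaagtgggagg
EGR1, chr5:138465359-138465420, + strand: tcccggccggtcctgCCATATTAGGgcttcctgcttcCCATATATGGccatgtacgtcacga
MYLK, chr3:123620618-123620657, − strand: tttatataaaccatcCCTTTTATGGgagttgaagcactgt
A match of letters is a description of the window, not evidence of binding.

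The libraries held 64571681 to 103518036 counts, and no pair of replicates looked like 1 library deposited again. TRPV4 itself had 24 to 64 counts in the 6 SC samples and 1 to 13 in the shTRPV4 samples, a log2 fold change of -2.51 at 8 cP (SE 0.49, adjusted p = 0.00219). Of the markers of the line, VIM, CD44, AXL and MSN summed to 3512 to 3880 CPM (counts relative to the TMM-scaled library total, times 1e6), while ESR1, PGR and CDH1, which the line lacks, were each at or near 0. The 7 smooth muscle markers summed to 0.537 to 1.33 CPM, and MYOCD, the smooth muscle cofactor of SRF, had 0 counts in all 9 samples. Summed fibroblast, endothelial and leukocyte markers stood at 2.16 to 7.58 CPM per list. The luminal epithelial list summed to 1339.6 to 1861 CPM, most of it from KRT8, which was at 1406, 1135 and 1076 CPM across SC at 0.77 cP, SC at 8 cP and shTRPV4. In the same order PECAM1 (5.04, 2.75 and 2.18 CPM) and CD14 (5.86, 4.25 and 3.47 CPM) fell with viscosity as did KRT8, and so did the fibroblast marker PDGFRB (6.31, 4.41 and 5.09 CPM) and VIM (1049, 931 and 766 CPM). With knockdown VIM fell further, while LUM (0.766, 0.69 and 1.47 CPM), KRT18 (338, 291 and 331 CPM) and GATA3 (12.2, 12.8 and 15.8 CPM) rose. KRT18 had fallen with viscosity. AXL rose with viscosity and fell with knockdown, and MSN rose with knockdown. The part of these markers in the results below was not tested.

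Raising viscosity from 0.77 to 8 cP left most of the 10 genes near their starting levels. Of the 10 genes, 1 passed the test, TAGLN, which was lower, and none was called higher, against a background of 19.3% of all tested genes called, 9.57% higher and 9.69% lower. The level of 7 of the 10 moved by less than 10%. Their median log2 fold change was 0.0098, beside -0.0065 over all genes, and their median size of change was 0.075 beside 0.15 over all genes. For knockdown and for both changes together the medians were -0.025 and 0.033, beside 0.00064 and -0.011 over all genes. The median size of 0.15 over all genes includes genes of low counts, whose fold changes are less precise. No set of genes matched by level was compared. TRPV4 depletion at 8 cP moved 2 of the 10, MRTFA and TPM1, both higher, and none was called lower, where 20.0% of all genes were called, 9.02% higher and 11.0% lower. The remaining comparison, of the shTRPV4 line with SC cells at baseline viscosity, joined both changes and called 3 of the 10: MRTFA and TPM1 higher and TAGLN lower. In that comparison 42.4% of all genes were called, 20.4% higher and 22.0% lower. The 3 comparisons share samples, so a gene's values in them are not independent. At an unadjusted p under 0.05 the 10 genes gave 4, 3 and 6 calls in the order above, with edgeR's quasi-likelihood test. The share of all genes at that unadjusted limit is not given here, so these counts have no background and are not read as a result.

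**Figure D1:**
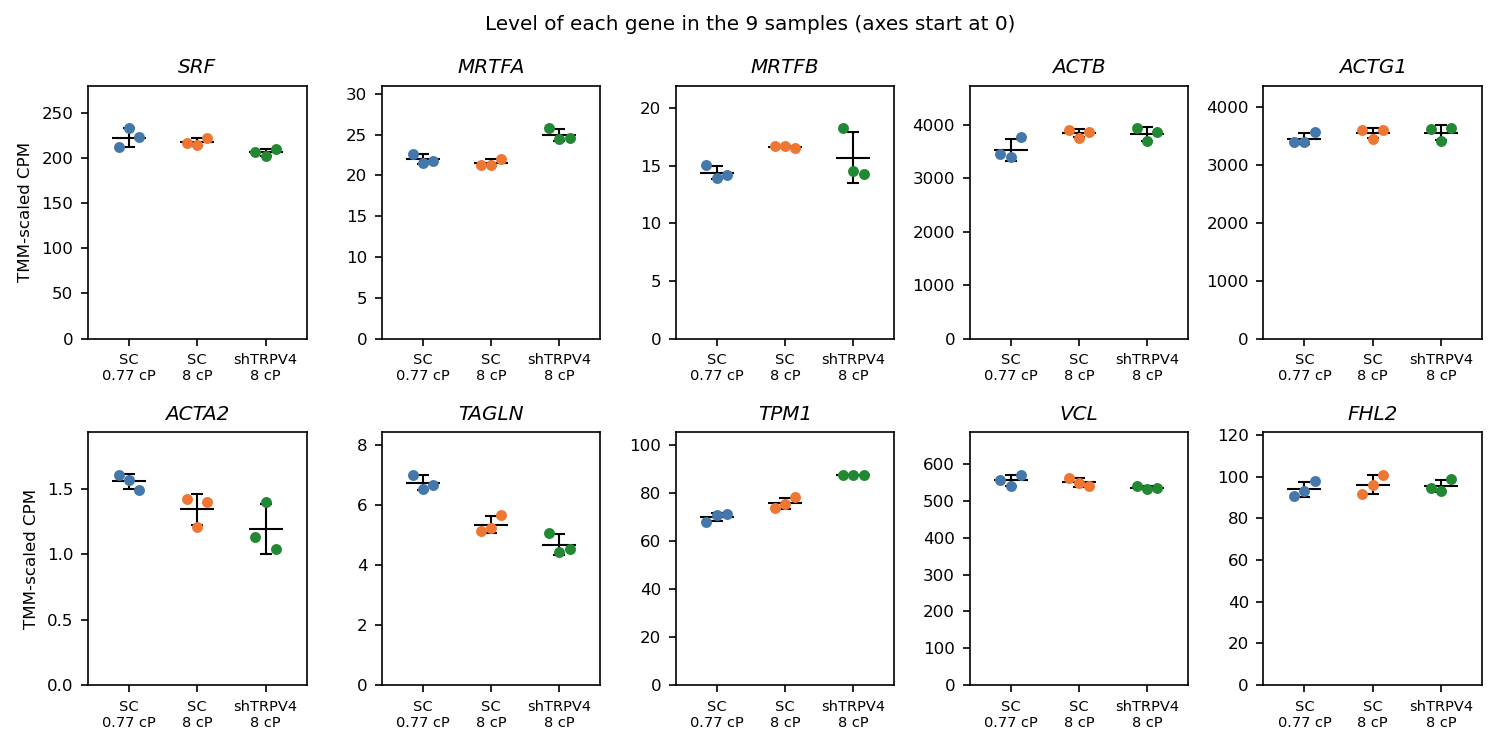
Level of each of the 10 genes as TMM-scaled CPM (vertical axes, each starting at 0) in the 3 groups; points are single samples, and bars are the mean ± SD of 3 samples. TAGLN steps down from 6.74 to 5.35 to 4.68 CPM and TPM1 steps up from 70.2 to 75.9 to 87.7 CPM, while ACTB, ACTG1, VCL and FHL2 stay within 10% of their starting means.

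Per exon length, the genes spanned more than 3 orders of magnitude, with the cytoplasmic actins at the top. Exon length here joins the exons of all annotated transcripts and can exceed any single transcript, so levels per kb compare genes only roughly. In SC cells at 0.77 cP, ACTG1 stood at 851 ± 24.5 CPM per kb of exon (SD, n = 3) and ACTB at 803 ± 46.6, with overlapping samples. Next came VCL at 55.8 ± 1.50 and SRF at 52.6 ± 2.53 CPM per kb, whose samples overlapped as well. FHL2 followed at 14.2 ± 0.556, TPM1 at 4.77 ± 0.121 and MRTFA at 3.0 ± 0.0810 CPM per kb, each well apart from its neighbours. TAGLN at 1.03 ± 0.0374 and MRTFB at 0.868 ± 0.0348 CPM per kb were close, and at 8 cP they stood at 0.816 ± 0.0441 and 1.005 ± 0.00456. Their order is not read from these values, since 2498 of the 6550 exonic bases of TAGLN are shared with ENSG00000280143 on the same strand, where reads may be left uncounted. ACTA2, the smooth muscle actin, was lowest at 0.277 ± 0.0104 CPM per kb. The other muscle actins did not pass the filter: ACTA1 had 2 to 14 counts a sample, ACTC1 0 to 3 and ACTG2 0 to 7. Nearly all actin RNA counted in these cells came from ACTB and ACTG1.

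**Figure D2:**
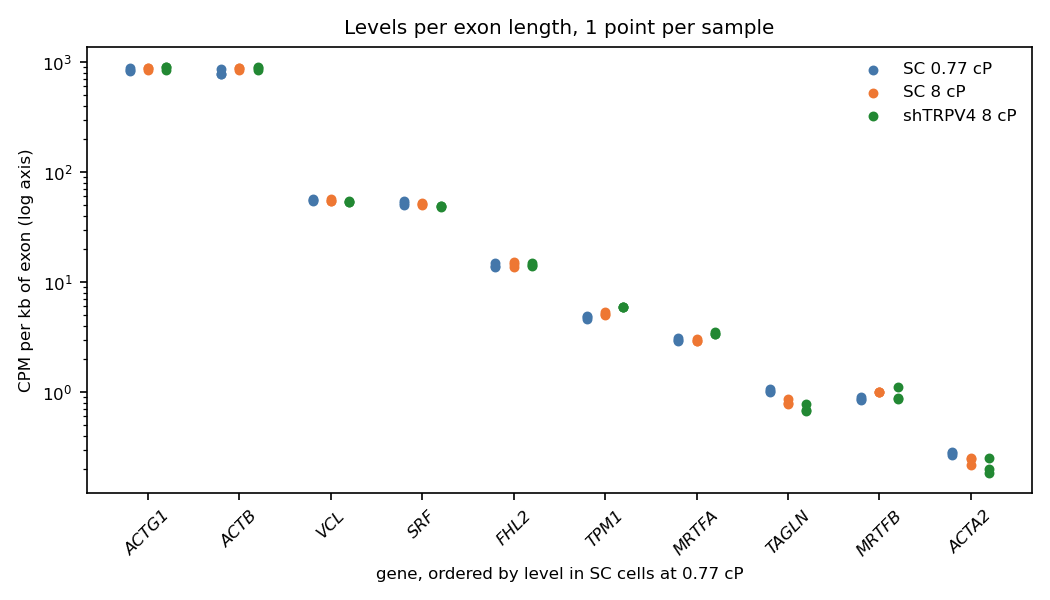
Level of each gene as CPM per kb of exon (vertical log axis), with genes ordered by their level in SC cells at 0.77 cP and 1 point per sample in each of the 3 groups. ACTG1 and ACTB stand at 803 to 876 CPM per kb on average, ACTA2 at 0.212 to 0.277, and the groups of a gene lie close together beside the distances between genes.

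SRF (ENSG00000112658; chr6:43171269-43181506, + strand) was steady. Its level was 212, 233 and 223 CPM in SC cells at 0.77 cP, 217, 214 and 222 CPM in SC cells at 8 cP, and 206, 202 and 209.7 CPM in shTRPV4 cells. The SC groups overlapped, and the 3 shTRPV4 samples lay below all 6 SC samples by a small margin. The log2 fold change was -0.031 with viscosity (SE 0.044, 95% confidence interval -0.13 to 0.064, adjusted p = 0.675) and -0.080 with knockdown (SE 0.045, interval -0.17 to 0.014, adjusted p = 0.233). Against SC cells at 0.77 cP, the shTRPV4 cells were at -0.11 (SE 0.045, adjusted p = 0.0569), short of the threshold. That last value passed it with upper quartile scaling (adjusted p = 0.0314), with a minimum of 10 counts in every sample (0.0480) and without SC 0.77 cP replicate 1 (0.0286).

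Of the MRTF cofactors, MRTFA passed the test with knockdown and MRTFB passed in no comparison. MRTFA (ENSG00000196588; chr22:40410281-40636719, − strand) was at 22.7, 21.5 and 21.8 CPM in SC cells at 0.77 cP, 21.3, 21.3 and 22.1 CPM at 8 cP, and 25.8, 24.5 and 24.6 CPM in shTRPV4 cells. The SC groups overlapped and all 3 shTRPV4 samples stood above all 6 SC samples. MRTFA was 1.16-fold higher with knockdown at 8 cP (log2 fold change 0.21, SE 0.053, adjusted p = 0.0106), and 1.13-fold higher than in SC cells at 0.77 cP (0.18, SE 0.053, adjusted p = 0.0113). Without SC 8 cP replicate 2, the first of these missed the threshold (0.20, adjusted p = 0.0528). With viscosity alone the MRTFA change was -0.029 (interval -0.14 to 0.084, adjusted p = 0.747).

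MRTFB (ENSG00000186260; chr16:14071319-14266773, + strand) was at 15.0, 13.9 and 14.2 CPM in SC cells at 0.77 cP, 16.7, 16.7 and 16.6 CPM at 8 cP, and 18.3, 14.6 and 14.3 CPM in shTRPV4 cells. All 3 SC samples at 8 cP stood above those at 0.77 cP, while shTRPV4 replicate 1 stood apart from the other two of its group. The change with viscosity was 0.21 (SE 0.083, adjusted p = 0.0875) and did not pass, and that with knockdown was -0.085 (SE 0.082, adjusted p = 0.523). Leaving out shTRPV4 replicate 1 brought both past the threshold, at 0.21 with viscosity (adjusted p = 0.0168) and -0.21 with knockdown (adjusted p = 0.0411). The viscosity value also passed with no filter on low counts (adjusted p = 0.0453) and with the 6 SC samples alone (0.0285). The balance between the cofactors, as the log2 ratio of MRTFB to MRTFA counts, was -0.61 ± 0.019 (SD, n = 3) at 0.77 cP, -0.37 ± 0.036 at 8 cP and -0.68 ± 0.16 in shTRPV4 cells. It was higher in every SC sample at 8 cP than at 0.77 cP, by 0.24, and lower by a difference of -0.31 with knockdown. Each gave p = 0.10 in a two-sided exact permutation test, the smallest that 3 samples against 3 allow (adjusted p = 0.15 over 9 ratio tests).

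ACTB, the gene of cytoplasmic beta-actin (ENSG00000075624; chr7:5526409-5563902, − strand), was at 3448, 3394 and 3774 CPM in SC cells at 0.77 cP, 3906, 3765 and 3873 CPM at 8 cP, and 3943, 3693 and 3864 CPM in shTRPV4 cells. SC 0.77 cP replicate 3 reached into the range at 8 cP, so the SC groups overlapped. The change with viscosity was 0.12 (SE 0.050, adjusted p = 0.103) and that with knockdown was -0.0054 (interval -0.11 to 0.10, adjusted p = 0.957). The viscosity value passed with DESeq2 (0.13, adjusted p = 0.0494) and without SC 0.77 cP replicate 3 (0.18, adjusted p = 0.0153). Against SC cells at 0.77 cP, the shTRPV4 cells were at 0.12 (SE 0.050, adjusted p = 0.0762).

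ACTG1, the gene of cytoplasmic gamma-actin (ENSG00000184009; chr17:81509413-81523847, − strand), was at 3387, 3397 and 3564 CPM, then 3590.1, 3437 and 3596 CPM, then 3613, 3406 and 3629 CPM in the same order of groups. All groups overlapped, and the changes were 0.038 with viscosity (interval -0.060 to 0.14, adjusted p = 0.611), 0.0035 with knockdown (interval -0.094 to 0.10, adjusted p = 0.969) and 0.041 for both together (adjusted p = 0.508). The log2 ratio of ACTG1 to ACTB counts was -0.036 ± 0.043 (SD, n = 3) at 0.77 cP and -0.12 ± 0.012 at 8 cP, a difference of -0.084 (exact permutation p = 0.10, adjusted p = 0.15). With knockdown the ratio moved by 0.0090 (exact permutation p = 0.60). Actin genes resemble their processed pseudogenes: the 12 of ACTB held at most 0.0608% of the CPM of ACTB, and the 21 of ACTG1 at most 0.0251% of that of ACTG1. Reads that fit both a gene and a pseudogene may be left uncounted, so these shares do not measure how many such reads there were.

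ACTA2, the smooth muscle actin that marks contractile myofibroblasts (ENSG00000107796; chr10:88935074-88991339, − strand), was barely present. It had 152, 101 and 154 counts in SC cells at 0.77 cP, 141, 117 and 127 at 8 cP, and 94 to 110 in shTRPV4 cells. In CPM these were 1.61, 1.57 and 1.50, then 1.43, 1.21 and 1.40, then 1.14, 1.41 and 1.04. Every sample at 8 cP lay below every sample at 0.77 cP, and the groups at 8 cP overlapped. The change was -0.21 with viscosity (SE 0.15, interval -0.54 to 0.11, adjusted p = 0.361), -0.18 with knockdown (SE 0.16, adjusted p = 0.482) and -0.39 for both together (SE 0.16, adjusted p = 0.0574). At this depth a change in ACTA2 of the size seen in TAGLN was within its interval. The last value passed with upper quartile scaling (-0.41, adjusted p = 0.0490) and without shTRPV4 replicate 2 (-0.52, adjusted p = 0.0262). ACTA2 shares 2025 exonic bases with FAS and ACTA2-AS1 on the other strand, and FAS was at 4.41, 4.57 and 4.43 CPM across the groups, above ACTA2 itself. The log2 ratio of ACTA2 to ACTB fell by 0.34 with viscosity (exact permutation p = 0.10, adjusted p = 0.15).

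TAGLN, the gene of transgelin, an actin-bundling protein of smooth muscle (ENSG00000149591; chr11:117199370-117207464, + strand), was the one member lower with viscosity. It was at 7.01, 6.53 and 6.68 CPM in SC cells at 0.77 cP, 5.13, 5.24 and 5.67 CPM at 8 cP, and 5.06, 4.42 and 4.55 CPM in shTRPV4 cells. The 3 groups did not overlap, from SC at 0.77 cP down to shTRPV4. TAGLN was at 0.792-fold of its level at 0.77 cP (log2 fold change -0.34, SE 0.085, adjusted p = 0.0136), and shTRPV4 cells were at 0.694-fold of that level (-0.53, SE 0.086, adjusted p = 0.000166). The step with knockdown alone, -0.19 (SE 0.087, adjusted p = 0.141), did not pass. The viscosity call was lost without SC 0.77 cP replicate 1 (-0.30, adjusted p = 0.0696), SC 8 cP replicate 1 (-0.30, adjusted p = 0.0559) or SC 8 cP replicate 2 (-0.31, adjusted p = 0.0522), with the same direction each time. TAGLN rested on 346 to 687 counts a sample. It shares 2233 exonic bases with PCSK7 on the other strand, and PCSK7 was at 19.9, 21.7 and 22.2 CPM (0.13 with viscosity, adjusted p = 0.139), and its part in the TAGLN values was not tested.

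TPM1, the gene of a tropomyosin that lines actin filaments (ENSG00000140416; chr15:63042620-63071915, + strand), rose with knockdown. Its level was 68.2, 70.8 and 71.5 CPM in SC cells at 0.77 cP, 73.9, 75.5 and 78.3 CPM at 8 cP, and 87.8, 87.8 and 87.6 CPM in shTRPV4 cells. The 3 groups did not overlap, in the reverse order to TAGLN. TPM1 was 1.16-fold higher with knockdown (log2 fold change 0.21, SE 0.042, adjusted p = 0.00269) and 1.25-fold higher in shTRPV4 cells than in SC cells at 0.77 cP (0.32, SE 0.042, adjusted p = 2.49e-05). Both calls held without each sample in turn. The change with viscosity was 0.11 (SE 0.042, adjusted p = 0.0759), and it passed with DESeq2 (0.12, adjusted p = 0.0443). TPM1 shares 3336 exonic bases with genes on the other strand, of which TPM1-AS was at no more than 0.0173 CPM on average in any group.

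Its paralogues are named here after their values were seen, and differences between paralogues were not tested. TPM2 went from 17.5 ± 3.85 (SD, n = 3) to 12.2 ± 1.69 to 15.9 ± 1.10 CPM, lower with viscosity (-0.52, SE 0.13, adjusted p = 0.0121) and higher with knockdown (0.39, SE 0.13, adjusted p = 0.0477). TPM4 went from 1134 ± 21.4 to 1246 ± 19.6 to 1131 ± 25.6 CPM, higher with viscosity (0.14, SE 0.042, adjusted p = 0.0329) and lower with knockdown (-0.14, SE 0.042, adjusted p = 0.0276). TPM3 was at 758 ± 24.9, 815 ± 30.7 and 794 ± 3.74 CPM and passed in no comparison. Per exon length TPM4, at 91.6 CPM per kb in SC cells at 0.77 cP, and TPM3, at 50.1, stood above TPM1 at 4.77 and TPM2 at 5.49. The joined exons came to 14700 bases for TPM1 and 3183 for TPM2, so the order of TPM1 and TPM2 is not read from these values. In CPM, TPM1 at 70.2 stood above TPM2 at 17.5 in the same cells.

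VCL, the gene of vinculin, which ties actin to adhesions (ENSG00000035403; chr10:73995193-74121363, + strand), was at 558, 543 and 572 CPM in SC cells at 0.77 cP, 564, 549 and 541 CPM at 8 cP, and 540.4, 532 and 536 CPM in shTRPV4 cells. The shTRPV4 samples lay just under the others, but no change passed: -0.016 with viscosity (interval -0.10 to 0.072), -0.041 with knockdown (interval -0.13 to 0.047) and -0.057 for both together (interval -0.14 to 0.031). FHL2, the gene of a LIM-domain cofactor that can bind SRF (ENSG00000115641; chr2:105357712-105438513, − strand), was at 90.6, 93.2 and 97.9 CPM, then 91.7, 96.0 and 101.1 CPM, then 94.4, 93.4 and 99.0 CPM, with all groups overlapping. Its changes were 0.035 (interval -0.068 to 0.14), -0.0098 (interval -0.11 to 0.094) and 0.025 (interval -0.078 to 0.13). For both genes these intervals leave room for a change of about 10% in either direction at most. VCL shares 1109 exonic bases with AP3M1 on the other strand, which was higher with viscosity (68.9 to 82.1 CPM, 0.25, adjusted p = 0.00426), and its part in the VCL values was not tested.

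**Figure D3:**
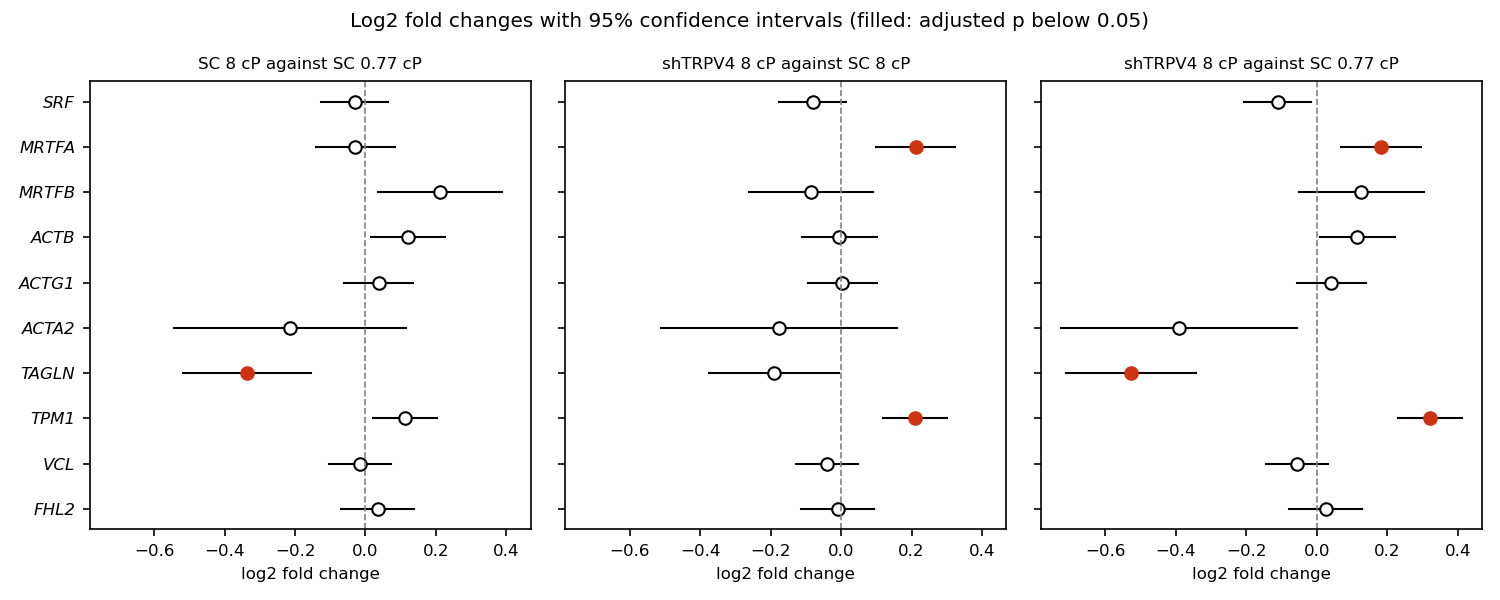
Log2 fold change of each gene (horizontal axis) in the 3 comparisons, with its 95% confidence interval as a line and a filled point where the adjusted p was below 0.05. TAGLN at -0.34 is the filled point for viscosity, MRTFA and TPM1, both at 0.21, are those for knockdown, and the widest intervals belong to ACTA2.

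Other cytoskeletal genes driven by MRTF and SRF were taken as a list of 31, of which 30 were tested; CNN1 had too few counts. With viscosity 3 were higher, 9 lower and 18 not called, beside 9.57% higher and 9.69% lower over all genes, with a median of 0.041. The genes with the smallest p were TUFT1 (76.1 to 56.6 CPM, -0.43, adjusted p = 0.000185), CCN1, a matricellular protein (1440.1 to 1055 CPM, -0.45, adjusted p = 0.00185), and LIMA1, an actin cross-linker (197 to 241 CPM, 0.29, adjusted p = 0.00258). The others called lower were TPM2, ANKRD1, FHL1, CCN2, TAGLN2, TGFB1I1 and ITGA5, and the others called higher were TPM4 and ZYX. Of the 9 lower genes, CCN1, CCN2 and ANKRD1 are also known targets of YAP, a transcriptional coactivator of the Hippo pathway. With knockdown 10 were higher, 4 lower and 16 not called, beside 9.02% higher and 11.0% lower over all genes, with a median of -0.0050. MYLK, the kinase that activates non-muscle and smooth muscle myosin, went from 63.4 to 98.8 CPM (0.64, SE 0.046, adjusted p = 2.58e-07) and had been at 63.5 CPM in SC cells at 0.77 cP. ANKRD1 went from 364 to 556 CPM (0.61, adjusted p = 0.000185), and LIMA1 from 241 to 296 CPM (0.30, adjusted p = 0.00121). The other 7 higher genes were FLNC, TPM2, MYH10, THBS1, FHL1, CCN1 and CALD1, and the 4 lower were ITGA5, TAGLN2, WDR1 and TPM4. Against SC cells at 0.77 cP, shTRPV4 cells had 9 higher, 6 lower and 15 not called, beside 20.4% higher and 22.0% lower over all genes. The smallest p in that comparison were those of MYLK (0.64), LIMA1 (0.59, adjusted p = 8.18e-07) and TAGLN2, a transgelin found outside muscle (772 to 567 CPM, -0.44, adjusted p = 3.53e-06).

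Among the 3 ternary complex factors, the other cofactors of SRF, ELK3 was called higher with knockdown. With viscosity the smallest adjusted p was that of ELK4, which did not pass (31.3 to 34.8 CPM, 0.16, adjusted p = 0.0611) ahead of ELK3 (0.065, adjusted p = 0.443) and ELK1 (0.039, adjusted p = 0.573). ELK3 rose with knockdown from 118 to 139 CPM (0.23, SE 0.055, adjusted p = 0.00727) and was also higher against SC cells at 0.77 cP (0.30, adjusted p = 0.000435). ELK1 and ELK4 did not pass in either.

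The immediate early genes that SRF drives with those factors fell with viscosity. Of 11 such genes, 10 were lower in SC cells at 8 cP, each by more than any of the 10 pathway genes changed, and 1, FOSL1, was higher, with a median of -2.51 beside -0.0065 over all genes. Over all genes 9.69% were called lower and 9.57% higher. NR4A1, an orphan nuclear receptor, was at 38.3, 35.7 and 31.4 CPM at 0.77 cP and 1.12, 0.911 and 0.958 CPM at 8 cP (-5.13, SE 0.12, adjusted p = 1.31e-13). FOSB, a subunit of AP-1, was at 20.7, 24.1 and 21.0 CPM and then 0.981, 0.839 and 1.19 CPM (-4.45, SE 0.12, adjusted p = 6.81e-13). EGR3, a zinc finger factor, went from 7.32 ± 1.65 to 0.521 ± 0.0273 CPM (-3.80, SE 0.19, adjusted p = 1.59e-09). EGR1, with the paired boxes printed above, was at 465, 529 and 517 CPM and then 87.4, 83.7 and 93.8 CPM. In each of these 4 the SC groups stood far apart. The summed CPM of the list was 1728 to 1866 at 0.77 cP and 993 to 1008 at 8 cP.

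With knockdown the same list had 2 higher, 3 lower and 6 not called (median -0.28), beside 9.02% higher and 11.0% lower over all genes. FOSL1 rose from 338 to 493 CPM (0.54, SE 0.058, adjusted p = 1.16e-05), and NR4A1 was the other one higher. MCL1, a survival factor, fell from 464 to 363 CPM (-0.35, adjusted p = 8.49e-05), EGR1 fell from 88.3 ± 5.12 to 53.6 ± 16.2 CPM (-0.72, SE 0.14, adjusted p = 0.00235), and EGR3 was the third one lower. Against SC cells at 0.77 cP, 10 were lower and FOSL1 higher, beside 22.0% lower and 20.4% higher over all genes, with a median of -3.23. EGR3 (-4.86, adjusted p = 2.34e-10), FOSB (-4.49, adjusted p = 7.53e-13) and NR4A1 (-4.48, adjusted p = 4.94e-13) had the smallest p. SRF itself, which belongs to both arms, changed by -2.1% with viscosity and was not called. Several genes of these lists share exonic bases with annotated genes on the other strand. Among them are NR4A1, EGR3, MYLK, TPM4, THBS1, ELK3, ELK4, CCN2, JUNB, IER2 and MCL1.

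**Figure D4:**
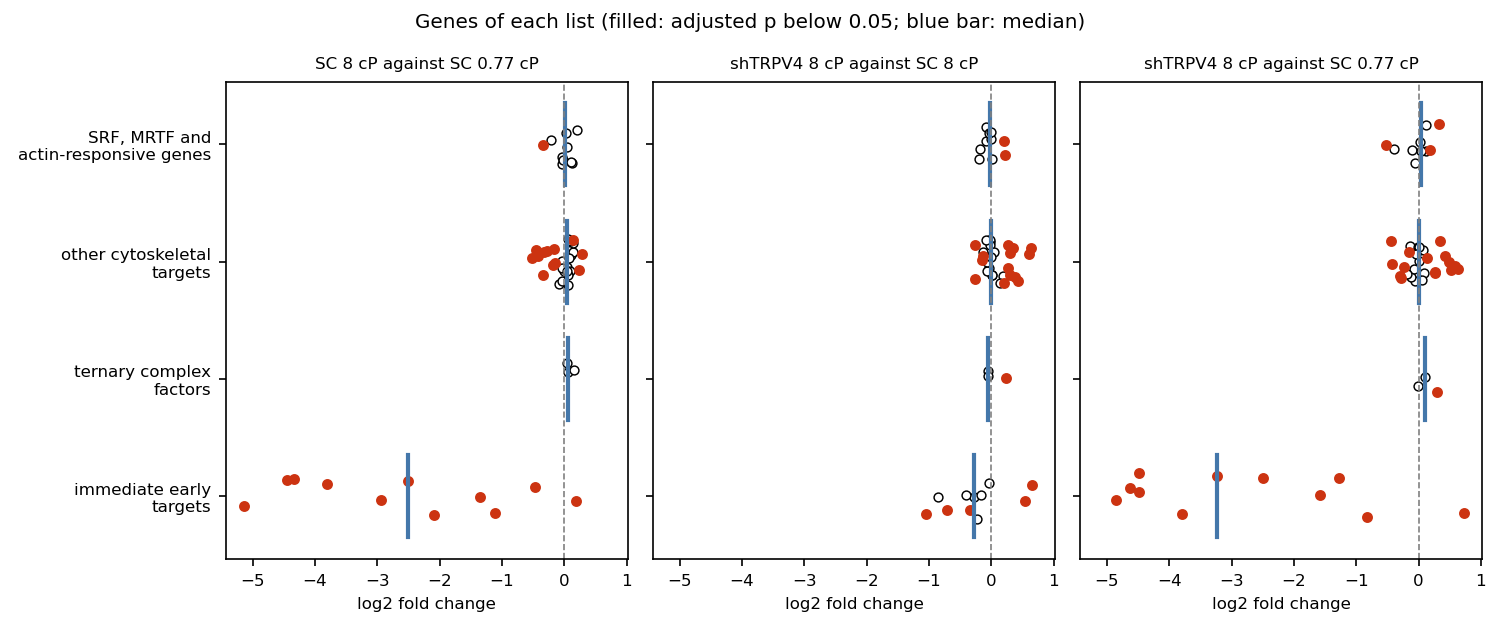
Log2 fold change of single genes (horizontal axis) by list in the 3 comparisons; points are genes, filled where the adjusted p was below 0.05, blue bars are list medians, and vertical scatter within a list only separates points. The immediate early genes reach -5.13 with viscosity around a median of -2.51, while the 10 genes described here stay between -0.34 and 0.21.

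Among tested genes with a RefSeq window, 185 held an exact CArG box and 11926 did not. With viscosity 10.8% of those were called higher and 16.8% lower, beside 11.7% and 10.5% of those without one. With knockdown the shares were 11.4% higher and 18.9% lower, beside 9.81% and 12.9%. For both together they were 20.5% and 35.1%, beside 23.8% and 24.4%. These shares are given as a description, with no test, and SRF, ACTG1 and FHL2, which hold the box, passed in none of the comparisons.

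Of 13107 genes with a mean of at least 1 CPM, those whose log2 level followed SRF most closely over the 9 samples were ASB8 (Pearson r = 0.94), ARID3A (0.93) and ENSAP2 (0.93). Those closest to TAGLN were COL1A1, which encodes an alpha chain of type I collagen (0.99), ZNF76 (0.98) and ZNF844 (0.98). The 9 points share 3 groups and their library scaling, so these are descriptions of a pattern.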

How the data were processed

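Poly(A) RNA of 9 MDA-MB-231 samples was sequenced as 100 bp pairs with a directional kit. The deposited files hold raw counts per gene: per the submitters' processing notes and methods, the authors aligned reads with HISAT2 2.2.1, used SAMtools 1.1.3, and counted with HTSeq 0.13.5 against Ensembl release 104 (GRCh38). The strand setting of the counting is not given in the sources used here, so reads of overlapping genes on opposite strands may be mixed. Exon lengths, overlaps and positions came from GENCODE 44 (GRCh38), and windows from RefSeq (GRCh38.p14).

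Counts were fitted with edgeR 4.0.16 (quasi-likelihood test, TMM scaling, filterByExpr, R 4.3.3) over all 9 samples, with 1 coefficient per group and Benjamini-Hochberg adjustment over 18264 genes at a threshold of 0.05. A gene is called where it passes. SE is the log2 fold change over the root of F. Totals of 64571681 to 103518036 counts limit precision mainly for ACTA2, TAGLN and TRPV4. Ratios used log2 of counts plus 0.5 and two-sided exact permutation tests. The fit was tested on simulated counts.

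The members and gene lists were chosen with earlier results of these data known. Named genes include the members, TRPV4 and the 3 genes of smallest p per list and comparison. The 3 most correlated with SRF and with TAGLN are named too. Some further genes called in a list are given by name, but not all of them. The result of 1 other gene list is not reported here. Alternatives were DESeq2 1.42.0, upper quartile scaling, library totals, other filters, 6-sample fits, a fold threshold, a replicate block and leaving out each sample. Same-numbered samples of different groups had correlations of deviations of -0.055 to 0.090, so the numbers were not taken as pairs.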

Additional observations from a re-analysis of the deposited data

How the results depend on the processing

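Members called with viscosity numbered 1, but 3 with DESeq2, 2 with no filter on low counts and 2 with only the 6 samples of the comparison. For both changes together the count went from 3 to 5 with upper quartile scaling. The numbers of all genes called under these settings are not given here, so the gains are not read as particular to the members. A further limit, a log2 fold change of 1 or more in size, left 0 members in each comparison, and 257, 345 and 847 of all genes (viscosity, knockdown, both), in place of 3518, 3649 and 7752. Leaving out 1 sample at a time gave 0 to 2 members with viscosity, 1 to 3 with knockdown and 3 to 4 for both, and 1409 to 4349 genes with viscosity and 2179 to 3836 with knockdown. The fewest genes with viscosity came without SC 0.77 cP replicate 1 (1409) and SC 8 cP replicate 3 (1418), followed by SC 0.77 cP replicate 2 (1927); with knockdown they came without SC 8 cP replicate 2 (2179) and SC 8 cP replicate 1 (2361). Of 480 recomputed fold changes of members, 448 kept their direction and side of the threshold, 4 lost and 15 gained a call, and 13 turned sign. Those that turned were never called: with knockdown, ACTG1 became -0.0022 with upper quartile scaling, and ACTB 0.022 and FHL2 0.018 with library totals alone. Leave-one-out ranges crossed 0 with viscosity for SRF (-0.059 to 0.011) and VCL (-0.027 to 0.014), and with knockdown for ACTB (-0.027 to 0.020), ACTG1 (-0.021 to 0.032), FHL2 (-0.044 to 0.027) and the log2 ratio of ACTG1 to ACTB (-0.0013 to 0.017). The cause was not tested. The replicate block, as the numbers are shared but do not pair samples, gave 1, 2 and 3 members and 3475, 3607 and 7731 genes, and changed no call of a member. Among the 10 members, ACTA2 had the fewest counts (94 to 154 a sample).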
